A study of Mus musculus with 2 samples.

Results

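The genes described here are 7 CC chemokines (Ccl2, Ccl7, Ccl8, Ccl12, Ccl6, Ccl9 and Ccl24) and 2 chemokine receptors (Ccr2 and Cx3cr1). They were picked by symbol, each matched exactly 1 row of the count matrices, and they make up 9 of the 32285 genes counted. Single cells were counted from pancreatic tumours of KPPC mice, given vehicle or the compound takinib at 50 mg/kg for 14 days, with 6 weeks given as the age of the mice. KPPC is a name in use for mice engineered to develop pancreatic cancer. The labels give neither the alleles, nor the Cre driver, nor how many mice were pooled. Takinib is an inhibitor of the kinase TAK1, the product of Map3k7, which relays signals of TNF and interleukin-1 to NF-kB and MAP kinases. Each treatment had 1 library. There is therefore no replicate and no test between treatments anywhere below, and every interval in square brackets is a 95% interval for counting error only.

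CC chemokines are small secreted proteins that guide leukocytes through G protein-coupled receptors. Ccl2, Ccl7 and Ccl12 are ligands of Ccr2, the receptor by which classical monocytes leave the bone marrow and enter inflamed or tumour tissue, where many of them become macrophages. Ccl6 and Ccl9 act mainly through Ccr1, mouse Ccl8 is a ligand of Ccr8, and Ccl24 attracts eosinophils through Ccr3. Cx3cr1 is the receptor of fractalkine (Cx3cl1) and marks patrolling monocytes and many tissue macrophages. In pancreatic tumours Ccl2 and Ccr2 are known for the recruitment of macrophages.

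The pair of cysteines for which CC chemokines are named is shown first, since it is the feature that all 7 ligands share and the genes around it are close relatives. Each line holds 42 bases of the coding strand, 5′ to 3′, from GENCODE M21 (GRCm38), with the codons of the adjacent cysteines in capitals. Where a coding sequence has more than 1 such pair, as in Ccl24, the later pair is printed.
Ccl2: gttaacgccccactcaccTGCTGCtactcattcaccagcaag
Ccl7: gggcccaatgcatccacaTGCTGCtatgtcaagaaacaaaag
Ccl8: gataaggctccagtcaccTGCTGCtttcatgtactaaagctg
Ccl12: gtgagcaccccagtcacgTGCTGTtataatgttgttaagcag
Ccl6: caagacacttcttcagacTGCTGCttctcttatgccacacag
Ccl9: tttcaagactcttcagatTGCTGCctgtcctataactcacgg
Ccl24: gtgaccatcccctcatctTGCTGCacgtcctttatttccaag

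Over the whole coding sequence, aligned bases were 72.1% identical between Ccl2 and Ccl7 and 70.7% between Ccl6 and Ccl9. The lowest identity of any pair was 61.2%, between Ccl12 and Ccl6. Reads that fall in a stretch shared by close relatives can be split between them, and no file here shows how such reads were counted.

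The ligands sit in 3 places of the genome (GRCm38, GENCODE M21). Ccl2 (chr11:82035571-82037453), Ccl7 (chr11:82045712-82047525), Ccl12 (chr11:82101845-82103400) and Ccl8 (chr11:82115185-82116799) follow each other on the plus strand. Ccl2 and Ccl7 are 8258 bases apart, and Ccl12 and Ccl8 11784. Ccl9 (chr11:83572919-83578636) and Ccl6 (chr11:83587882-83593087) are 9245 bases apart on the minus strand. Ccl24 lies alone at chr5:135569937-135573049. Ccr2 (chr9:124101950-124113557) and Cx3cr1 (chr9:119901616-120069879) are on the same chromosome. All 9 are protein-coding genes.

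The libraries differed in ways that touch every comparison. After filtering they held 9558 vehicle and 25183 takinib cells with 42000538 and 119726977 UMIs in all, medians of 3556 and 2887 UMIs (unique molecular identifiers, which tag captured RNA molecules) and 8.70% and 1.79% mitochondrial UMIs per cell. Of the kept barcodes, 359 occurred in both libraries. The takinib library held no UMI of 4 Y-linked genes, whereas 3087 vehicle cells carried Y-linked UMIs and no Xist and 1075 carried Xist and no Y-linked UMI, so the vehicle library holds cells of both sexes. The neutrophil genes S100a8 and S100a9 together stood at 266 CPM (the share of all UMIs of the summed cells, scaled to 1000000) in vehicle and 5509 CPM in takinib macrophage-like cells, and none of the 12 neutrophil markers was at 0 in either. After the neutrophil-like profile was subtracted, the 5 genes of this set past a 2-fold difference in macrophage-like cells, described below, were still past it, with Ccl2 at a log2 ratio of 1.26 and Ccr2 at -1.78.

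Most UMIs of these genes came from myeloid cells. The macrophage-like class, 49.7% of vehicle cells, held 92.7% of the Ccl24, 92.0% of the Ccl6, 91.8% of the Ccl9, 90.7% of the Ccl12, 90.2% of the Ccr2 and 88.5% of the Cx3cr1 UMIs of that library. For Ccl2, Ccl7 and Ccl8 they held 63.6%, 58.6% and 64.3%. Much of the remaining vehicle Ccl7 lay in perivascular-like (15.1%) and fibroblast-like cells (12.9%). In the takinib library macrophage-like cells were 15.2% of cells and still held 70.4% of the Ccl6 and 70.2% of the Ccl8. A cluster led by U90926, F13a1, Saa3 and Arg1, whose macrophage and monocyte scores were too close for a name, held 49.3% of the takinib Ccr2, 39.7% of the Ccl24, 31.0% of the Ccl7 and 26.9% of the Ccl2. This Saa3-F13a1 cluster had 3104 takinib and 19 vehicle cells, so its levels could not be compared between libraries.

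**Figure D1:**
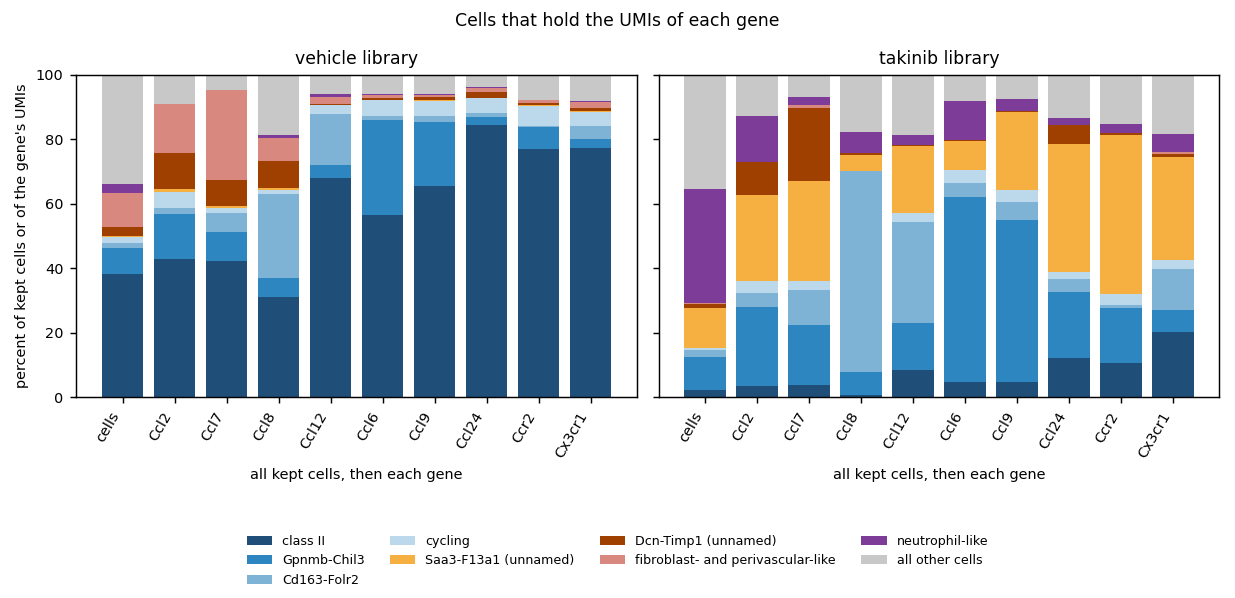
Stacked bars of the percent of kept cells (first bar) and of each gene's UMIs (other bars) found in each cell group, vehicle library on the left and takinib library on the right. In vehicle the class II macrophage-like cluster holds most UMIs of 6 of the genes, and in takinib the Gpnmb-Chil3, Saa3-F13a1 and Cd163-Folr2 clusters take larger shares.

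The macrophage-like class consists of 4 clusters, and the libraries filled them differently. A cluster led by class II genes (H2-Ab1, Cd74, with Dcstamp and Apoe) made up 76.4% of vehicle but 13.8% of takinib macrophage-like cells. A cluster led by Gpnmb, Lpl, Car4, Chil3 and Marco made up 16.2% of vehicle and 68.5% of takinib ones. Within vehicle this share differed with the source of cells. Most vehicle macrophage-like cells with Xist and no Y-linked UMI were of this cluster, as counted below. The Cd163-Folr2 cluster, which also carries Lyve1, Stab1 and Fcna and the highest summed level of the 12 macrophage markers among the 4, made up 3.07% and 12.9%. A cycling cluster led by Top2a made up 4.27% and 4.85%. All 12 macrophage markers were detected in each of the 4 in either library. Differences for the class as a whole are therefore given below beside those within each cluster.

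In macrophage-like cells 2 of the 9 genes passed a 2-fold difference upward in takinib (Ccl2 and Ccl8) and 3 downward (Ccl24, Ccr2 and Cx3cr1). A gene counted as past the fold with at least 50 UMIs in either library and a log2 ratio of takinib over vehicle above 1 or below -1, with 10 CPM added to both levels. By that rule 2.58% of the 11338 genes tested in these cells passed, 1.54% upward and 1.03% downward, and the median log2 ratio of all genes tested was 0.03. All 9 members were tested, with a median log2 ratio of 0.44. By the same rule Ccl2 alone passed in class II cells, of 9 members tested, where 1.69% of genes did (0.864% upward, 0.824% downward). There it fell short with 50 CPM added (log2 ratio 0.81) and with cells thinned to 1000 UMIs. In Gpnmb-Chil3 cells Ccl8 alone passed, of 9, where 2.32% of genes did (1.68% upward, 0.64% downward). In Cd163-Folr2 cells Ccl2 and Ccl8 passed upward and Ccr2 and Cx3cr1 downward, of 9, where 6.33% of genes did (4.35% upward, 1.98% downward). In cycling cells Ccl2 and Ccl7 passed upward and Ccl24, Ccr2 and Cx3cr1 downward, of 8, where 3.33% of genes did (2.29% upward, 1.04% downward). With 50 CPM added, Ccl7 (0.74), Ccl24 (-0.72) and Cx3cr1 (-0.87) fell short there. With cells thinned to 1000 UMIs none of these cycling-cell calls was left, with Ccr2 at -0.86 and too few UMIs for the others.

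Ccl2, the main monocyte attractant, stood at 66.9 CPM [63.4, 70.5] in 4755 vehicle and 171 CPM [166, 176] in 3836 takinib macrophage-like cells, a 2.56-fold difference [2.41, 2.72]. All 4 clusters had more of it in takinib. In class II cells it went from 61.8 to 146 CPM, in Gpnmb-Chil3 cells from 79.8 to 163, in Cd163-Folr2 cells from 89.5 to 209 and in cycling cells from 79.6 to 243. The counting intervals of the libraries did not overlap in any of these clusters, and the log2 ratios ran from 0.94 to 1.50. With the cells thinned at random to 1000 UMIs each, a Ccl2 UMI was seen in 4.02% [3.48, 4.61] of vehicle and 8.03% [7.19, 8.93] of takinib macrophage-like cells, against 9.91% and 24.8% before thinning at median depths of 3920 and 6481 UMIs. T-like cells, taken as background, showed a UMI in 1.35% [0.278, 3.88] and 2.01% [1.28, 3.0] after thinning.

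The vehicle cells themselves were not uniform in Ccl2. In the Gpnmb-Chil3 cluster, 331 vehicle cells with Xist and no Y-linked UMI stood at 39.9 CPM [30.8, 50.7] and 113 cells with Y-linked UMIs and no Xist at 132 CPM [106, 162], the latter overlapping the takinib level of 163 CPM [157, 168]. In class II cells the same groups stood at 35.2 [23.0, 51.5] and 55.3 [49.1, 62.1], both below the takinib 146 CPM. Levels thus differed between sources of cells within a single library, and sex and mouse cannot be told apart here.

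Ccl7 and Ccl12, the other Ccr2 ligands, differed less. Ccl7 stood at 31.4 CPM [29.0, 33.9] in vehicle and 49.4 [46.8, 52.0] in takinib macrophage-like cells, a log2 ratio of 0.52 that did not pass the fold. Its level varied between clusters in either library. Among the 4, Cd163-Folr2 cells were highest in either library, at 171 CPM [133, 217] and 152 [137, 167], with overlapping intervals. The cycling cluster had the widest Ccl7 gap, 10.8 against 51.5 CPM, from 15 and 107 UMIs.

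Ccl12 stood at 32.4 and 47.7 CPM in the class, a log2 ratio of 0.44, and among the 4 clusters it too was highest in Cd163-Folr2 cells. There it reached 299 CPM [247, 358] in vehicle and 268 [248.7, 288] in takinib, again overlapping, while class II cells held 33.5 and 61.7 CPM and Gpnmb-Chil3 cells 7.26 and 16.9. A small takinib-only cluster of 112 cells led by Vcam1, Cd5l and Spic, genes known from iron-recycling macrophages, stood at 312 CPM. A single cell held 150.0 of its 160.0 Ccl12 UMIs, and the cluster stood at 20.4 CPM without that cell, so the value is not a level of the group.

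**Figure D2:**
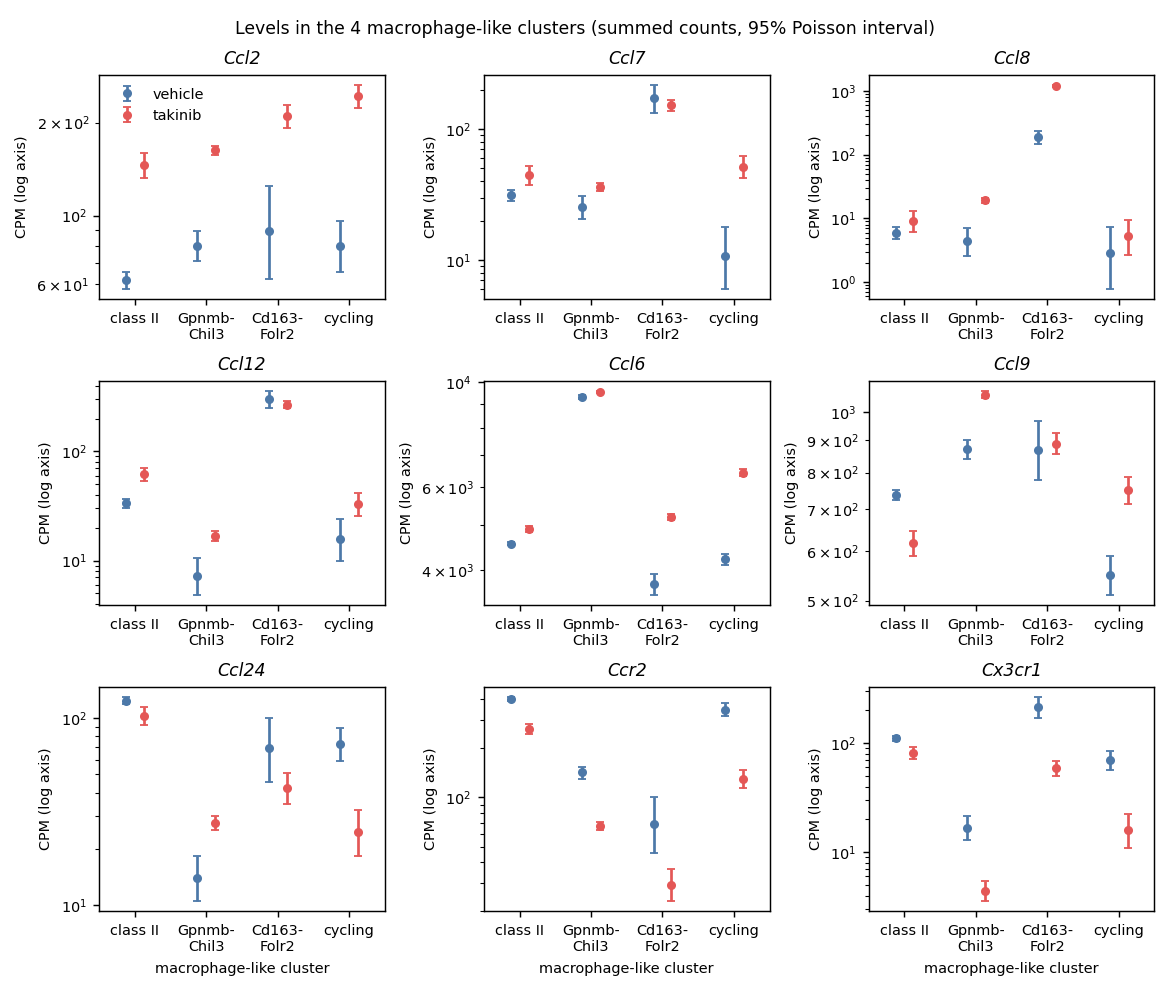
CPM on a log axis of each of the 9 genes in the 4 macrophage-like clusters, vehicle in blue and takinib in red, with 95% Poisson intervals of the summed counts from 1 library per treatment. Ccl2 is higher and Ccr2 and Cx3cr1 are lower in takinib in all 4 clusters, and Ccl8 separates most in the Cd163-Folr2 cluster.

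Ccl8 showed the widest gap. It stood at 8.90 CPM [7.66, 10.3] in vehicle and 133 CPM [129, 138] in takinib macrophage-like cells, a 15-fold difference [12.9, 17.5]. The Cd163-Folr2 cluster carried it. There the level was 189 CPM [149, 237] in 146 vehicle cells and 1209 CPM [1168, 1251] in 493 takinib cells, a 6.39-fold difference [5.08, 8.16], and these cells held 62.3% of all takinib Ccl8 UMIs while making up 1.96% of the cells. After thinning, 13.7% [8.57, 20.4] of vehicle and 24.7% [21.0, 28.8] of takinib cells of this cluster had a Ccl8 UMI, with intervals that did not overlap. The takinib counts were uneven: the 25 cells with the most Ccl8 held 62.0% of them, and a single cell held 274 UMIs.

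In the larger clusters Ccl8 was near background. Gpnmb-Chil3 cells stood at 4.41 and 19.2 CPM, a log2 ratio of 1.02 just past the fold. It fell short with 50 CPM added (0.35), with at most 10% mitochondrial UMIs (0.84), with the median gene set to 0 (0.98) and with vehicle cells limited to Xist and no Y-linked UMI (0.86), and too few UMIs were left to call it after thinning. In thinned takinib cells its share was 1.51% [0.653, 2.95] in class II and 0.876% [0.556, 1.31] in Gpnmb-Chil3 cells, overlapping the 1.40% [0.802, 2.26] of T-like cells. Epithelial-like cells showed 1.91% [1.35, 2.63], but 22 of these 37 cells lay in the Muc2 cluster described next. The other epithelial-like clusters ran from 0.444% [0.0113, 2.45] to 1.13% [0.517, 2.13], overlapping both macrophage-like shares. Ccl8 was also found in an epithelial-like cluster led, over both libraries together, by Mptx1, Spink4 and Muc2, the last a mucin of goblet cells. It stood there at 216 CPM [178, 260.1] in 81 takinib and 12.3 CPM [5.92, 22.7] in 121 vehicle cells. These cells may be unlike. With each library clustered on its own, Spink4 and Muc2 led a group of 111 vehicle cells, and S100g, Apoa1 and Alpi led 87 takinib cells. The 12 neutrophil markers summed to 29415 CPM in the takinib and 289 CPM in the vehicle cells of the joint cluster, and their part was not tested. In takinib plasma-like cells a value of 163 CPM came from 1 cell, which held 312 of the 321 UMIs. The plain mean of the 4 within-cluster log2 ratios was 1.04, against 2.92 for the class.

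Ccl8 and its neighbour Ccl12 were both highest in Cd163-Folr2 cells among the macrophage-like clusters, but only for Ccl8 did the counting interval of the log2 ratio leave out 0 there, with values of 2.61 [2.30, 2.95] and -0.15 [-0.43, 0.13]. Their promoters are printed for that reason, as the 250 bases before the start in RefSeq (GRCm38.p6, plus strand), 5′ to 3′. Capitals mark matches to TATAAAA (a core promoter element) and to GAGGAA (core letters bound by PU.1, a factor of myeloid cells), searched on both strands.
Ccl8, chr11:82114935-82115184: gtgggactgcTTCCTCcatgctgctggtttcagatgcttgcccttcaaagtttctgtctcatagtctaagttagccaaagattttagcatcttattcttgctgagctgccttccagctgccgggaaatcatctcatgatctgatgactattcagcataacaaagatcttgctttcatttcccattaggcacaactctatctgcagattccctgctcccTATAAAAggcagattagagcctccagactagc
Ccl12, chr11:82101595-82101844: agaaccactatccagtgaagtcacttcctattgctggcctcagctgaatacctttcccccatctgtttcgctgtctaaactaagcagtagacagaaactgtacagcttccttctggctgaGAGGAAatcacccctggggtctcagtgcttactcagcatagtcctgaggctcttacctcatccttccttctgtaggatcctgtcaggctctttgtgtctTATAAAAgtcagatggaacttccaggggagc

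The upstream stretches of Ccl8 and Ccl12 align over 213 bases with 67.6% identity. Both hold TATAAAA, beginning 32 and 31 bases before the start, which occurs in 4.98% of 32817 promoters of the same length. Each holds GAGGAA once on either strand, as do 23.3% of all promoters. On either strand neither holds TGANTCA (the AP-1 motif, in 6.75% of promoters), TTCNNNGAA (the STAT motif, 7.01%) or a match to the kappa-B consensus (7.25%). RefSeq promoters were matched for 6 of the 9 genes, and those of Ccl2, Ccl7 and Ccl24 were not used here.

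Ccl6 and Ccl9, the pair of Ccr1 ligands, were broad macrophage genes. Ccl6 had a UMI in 87.0% [86.0, 88.0] of vehicle and 88.8% [87.8, 89.8] of takinib macrophage-like cells after thinning. Its summed level was 5400 CPM against 8358 CPM in takinib, a log2 ratio of 0.63. Within class II cells it stood at 4555 and 4895 CPM and within Gpnmb-Chil3 cells at 9287 and 9534, log2 ratios of 0.10 and 0.04. The gap of the class was thus larger than that of the clusters that hold most of its cells, and Gpnmb-Chil3 cells, with the highest Ccl6 of any cluster, were the ones that filled more of the takinib class. Cycling and Cd163-Folr2 cells had log2 ratios of 0.61 and 0.47.

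Ccl9 stood at 752 CPM [740, 764] in vehicle and 974 [963, 986] in takinib, a log2 ratio of 0.37. It was lower in takinib class II cells (737 against 617 CPM), higher in Gpnmb-Chil3 cells (872 against 1065) and overlapping in Cd163-Folr2 cells (869 against 890). The 4 within-cluster log2 ratios ran from -0.25 to 0.45. Ccl6 UMIs were found in every cell class, for example at 216 CPM in vehicle B-like and 237 CPM in vehicle epithelial-like cells. In vehicle barcodes of 1 to 99 UMIs, which hold mostly free RNA, Ccl6 stood at 1997 CPM [1890.4, 2109] and Ccl9 at 284 [245, 328], above the levels in epithelial-like, T-like and B-like cells of that library. Vehicle levels of Ccl6 and Ccl9 in those classes were thus not above free RNA. The takinib library held no barcode under 500 UMIs, so its free RNA could not be read.

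Ccl24, the eosinophil attractant, was lower in takinib macrophage-like cells, at 98.7 CPM [94.5, 103] in vehicle and 37.3 [35.1, 39.6] in takinib, a log2 ratio of -1.20. The clusters did not share this difference. In class II cells, which held 84.4% of vehicle Ccl24, the levels were 124 and 103 CPM, a log2 ratio of -0.24. In cycling cells they were 72.4 and 24.5 CPM and in Cd163-Folr2 cells 69.0 [45.5, 100.4] and 42.2 [34.9, 50.7], overlapping, whereas in Gpnmb-Chil3 cells they were 14.0 and 27.6, higher in takinib. The vehicle free RNA held Ccl24 at 26.1 CPM [15.2, 41.8]. The class difference fell short of the fold under 6 of the 15 alternative settings, among them when the clusters were averaged with equal weights (-0.36), when the Saa3-F13a1 cluster was added (-0.97) and when vehicle cells were limited to those with Xist and no Y-linked UMI (-0.31). The highest takinib level of any cluster was 394 CPM [342, 453] in the Vcam1-Spic cells, where 33 of 112 cells had a UMI.

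**Figure D3:**
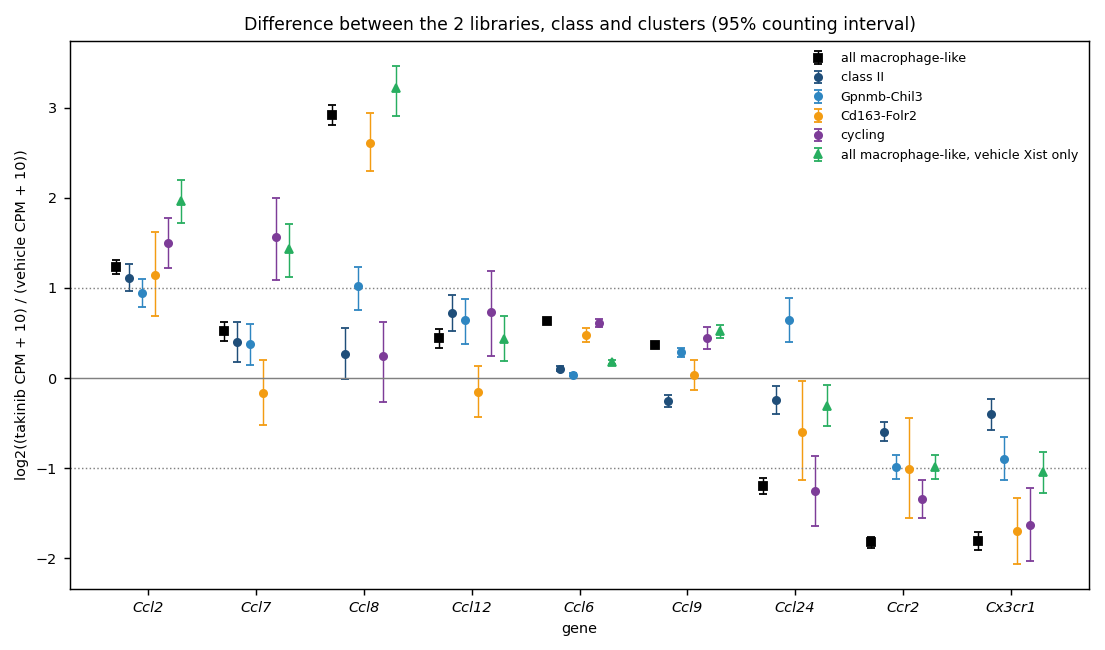
Log2 ratio of takinib over vehicle CPM (10 CPM added to each) for the 9 genes, for all macrophage-like cells, for each of the 4 clusters and for the class with vehicle cells limited to those with Xist and no Y-linked UMI; bars are 95% counting intervals and dotted lines mark a 2-fold difference. The class value lies beyond all 4 cluster values for Ccl8, Ccl6, Ccr2 and Cx3cr1.

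Ccr2, the monocyte chemokine receptor, stood at 344 CPM [336, 352] in vehicle and 90.0 CPM [86.6, 93.6] in takinib macrophage-like cells, 3.82-fold [3.65, 4.0] lower in takinib. It was lower in every one of the 4 clusters, by less than in the class. Class II cells went from 403 to 264 CPM, Gpnmb-Chil3 cells from 142 to 66.9, Cd163-Folr2 cells from 69.0 to 29.1 and cycling cells from 345 to 130, log2 ratios of -0.59, -0.99, -1.01 and -1.34. The intervals of the libraries did not overlap in any of the 4. The 69.0 CPM of vehicle Cd163-Folr2 cells was not above the vehicle free RNA, 112 CPM [87.9, 141]. In takinib, 25 of the 493 Cd163-Folr2 cells held 92.5% of their Ccr2 UMIs. The part of free RNA in this cluster was not tested. The mean over clusters, -0.98, and the class with vehicle cells limited to Xist and no Y-linked UMI, -0.99, fell just short of a 2-fold difference. In Cd163-Folr2 cells alone the fold was passed in 2 of 5 alternative settings, with -0.59 when 50 CPM were added.

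That limit changed the make-up of the class, since 331 of the 539 vehicle macrophage-like cells with Xist and no Y-linked UMI belonged to the Gpnmb-Chil3 cluster. Within class II cells the Ccr2 of the vehicle groups overlapped, 399 CPM [355, 447] with Xist and 394 [377, 411] with Y-linked UMIs. Within Gpnmb-Chil3 cells they had 89.4 [75.6, 105] and 200 [168, 237], and the takinib 66.9 CPM [63.4, 70.6] lay below both.

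The takinib library held Ccr2-high cells of its own. The Saa3-F13a1 cluster stood at 207 CPM [200, 213] with 3891 UMIs. At a finer clustering (Leiden resolution 2) 894 takinib and 19 vehicle cells separated as monocyte-like, led by Vcan, Ms4a4c, Ly6c2 and Plac8, with Ccr2 at 631 CPM [608, 655] and 529 [351, 764]. The takinib value was the highest of any group in that library. These monocyte-like cells held 35.3% of all takinib Ccr2 UMIs while being 3.55% of the cells. Their Ccl2 was 201 CPM [188, 214] in takinib and 227 [117, 396] in vehicle.

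Among other cells, dendritic-like cells had Ccr2 at 358 CPM [311, 411] in vehicle and 255 [220, 296] in takinib, overlapping the class II and cycling levels of vehicle and the class II level of takinib. T-like cells led by Il17a and Trdv4, genes of interleukin-17-producing gamma-delta T cells, had 511 CPM [437, 595] in 75 takinib cells, and the other T-like cells 43.2 [35.1, 52.5]. Only 1 vehicle cell fell in the Il17a cluster. Epithelial-like cells, taken as background, showed a UMI in 2.01% and 0.931% of thinned cells, against 25.9% [24.7, 27.2] and 7.53% [6.72, 8.41] of macrophage-like cells.

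Cx3cr1 went the same way. It stood at 92.5 CPM [88.4, 96.7] in vehicle and 19.3 [17.7, 21.0] in takinib macrophage-like cells, 4.8-fold [4.36, 5.29] lower in takinib. Among the 4 clusters Cd163-Folr2 cells had the highest vehicle level, 215 CPM [171, 266], and 59.0 [50.3, 68.8] in takinib. Class II cells differed least, at 111 and 81.3 CPM, a log2 ratio of -0.40, and Gpnmb-Chil3 cells had 16.9 and 4.43 CPM. After thinning, 8.90% of vehicle and 1.98% of takinib macrophage-like cells had a UMI, against 1.09% and 0.155% of epithelial-like cells. The call held under each of the 15 alternative settings, with log2 ratios from -2.21 to -1.04.

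**Figure D4:**
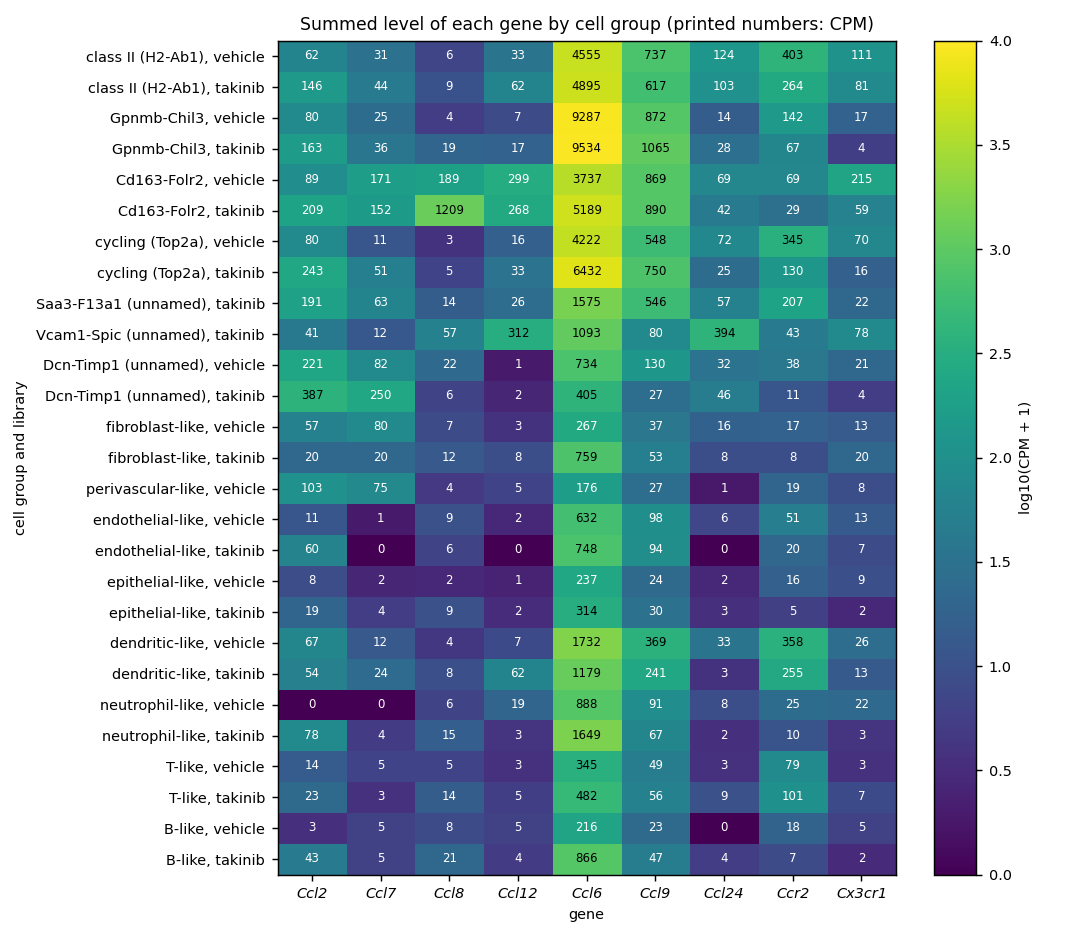
Heat map of the summed CPM of each gene (columns) in the larger cell groups of each library, of at least 50 cells (rows), coloured by log10(CPM + 1), with the CPM printed in each field. Ccl6 and Ccl9 are high throughout the macrophage-like clusters, Ccl8 peaks in takinib Cd163-Folr2 cells, Ccl12 is high in Cd163-Folr2 cells of either library while its value in Vcam1-Spic cells rests on 1 cell, and Ccl2 and Ccl7 are also high in the stromal Dcn-Timp1 cluster.

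Outside the myeloid cells, Ccl2 and Ccl7 were highest in stromal cells. A cluster led by Dcn, Serpinb2, Timp1 and Col3a1, left unnamed because its fibroblast and mesothelial scores were close, had the highest Ccl2 of any cluster compared, 221 CPM [194, 250.4] in 258 vehicle and 387 [367, 409] in 294 takinib cells. A single vehicle cell held 90 of the 242 vehicle UMIs, and without it that level was 140.1 CPM. Its Ccl7 stood at 82.1 CPM [66.0, 101] and 250 [234, 267], a 3.05-fold difference [2.45, 3.83]. In this cluster 8.07% of all genes tested passed the fold (4.72% upward, 3.34% downward), and of the 5 members with enough UMIs Ccl7 passed upward and Ccl9 downward, Ccl9 at 130 and 27.3 CPM. The summed level of the 12 macrophage markers in this cluster went from 4204 CPM (vehicle) to 1353 CPM (takinib) with none at 0, and the median depth of its cells was 3138.5 and 9081.5 UMIs. The part of macrophage RNA and of depth in these values was not tested. Thinned cells with a Ccl7 UMI were 4.65% [2.43, 7.98] and 6.80% [4.2, 10.3], overlapping, and single cells held up to 11 Ccl7 UMIs in vehicle and 146 in takinib.

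In vehicle, perivascular-like cells, led by the pericyte gene Rgs5, had 103 CPM [90.0, 117] of Ccl2 and 75.0 [64.1, 87.3] of Ccl7, and fibroblast-like cells 57.0 [46.5, 69.2] and 80.0 [67.4, 94.2]. A single cell held 113 of the 167 perivascular-like Ccl7 UMIs, and the class stood at 24.4 CPM without it. Another held 48 of the 143 fibroblast-like ones (53.3 CPM without it). Takinib held only 14 perivascular-like and 59 fibroblast-like cells, so neither was compared.

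In epithelial-like cells none of the 8 members tested passed the fold, where 4.1% of genes did (2.25% upward, 1.85% downward). Ccl2 was at 7.77 CPM [6.25, 9.56] in vehicle and 19.3 [17.5, 21.2] in takinib, Ccr2 at 15.7 and 4.79. Levels this low are near the 10 CPM added to each, and with 1 CPM added 4 members passed (Ccl2 and Ccl8 upward, Ccr2 and Cx3cr1 downward). In thinned cells Ccl2 was seen in 0.574% [0.276, 1.05] and 2.02% [1.44, 2.75], beside 1.35% and 2.01% in T-like cells.

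Neutrophil-like cells, 271 in vehicle and 8936 in takinib, had Ccl2 as the member that passed upward and Ccl12 and Cx3cr1 as those that passed downward, where 22.3% of genes passed (4.24% upward, 18.1% downward) and the median gene had a log2 ratio of -0.42. Scaled so that this median was 0, 3 members passed upward and 0 downward. No Ccl2 UMI was seen among 361454 vehicle UMIs, which allows up to 8.30 CPM, and takinib cells stood at 78.1 CPM [74.6, 81.7], at least 9.41-fold higher. A Ccl2 UMI was found in 5.15% [4.70, 5.63] of thinned takinib neutrophil-like cells, above the 2.01% of T-like cells. The vehicle cells of this class are of mixed kind: at the finer clustering most of them fell into a group led by Prss34, Siglecf, Mcpt8 and Cpa3, genes of basophils, mast cells and eosinophils. The vehicle Ccl12 and Cx3cr1 levels rested on 7 and 8 UMIs. With each library clustered on its own, Ccl2 no longer passed the fold in this class (log2 ratio 0.80).

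In B-like cells Ccl2 (2.54 and 43.0 CPM, from 1 and 122 UMIs) and Ccl6 (216 and 866 CPM) passed upward, of 4 members tested, where 13.5% of genes did (10.6% upward, 2.93% downward). Both Ccl6 levels lay below the 1997 CPM of the vehicle free RNA. The 12 neutrophil markers summed to 966 CPM in these vehicle and 48292 CPM in these takinib cells, with 3 and 0 of them at 0, and their part in the B-like values was not tested. A cluster of 568 takinib and 3 vehicle cells held 97 of the 122 takinib Ccl2 UMIs. In the cluster that both libraries filled, of 204 vehicle and 668 takinib cells, Ccl2 stood at 2.59 and 20.7 CPM from 1 and 25 UMIs, too few for a call, and Ccl6 at 197 and 615 CPM. In endothelial-like cells Ccr2 passed downward, of 3 members tested, at 50.6 and 19.9 CPM, where 8.99% of genes did (3.58% upward, 5.41% downward). Of the 109 vehicle Ccr2 UMIs, 81 lay in a cluster of 83 vehicle and 35 takinib cells led by Mmrn1, Ccl21a, Lyve1 and Prox1, genes of lymphatic endothelium, at 249.95 CPM [198, 311] in vehicle and 17.2 [5.58, 40.1] in takinib. The 12 macrophage markers summed to 10745 CPM in these vehicle and 1121 CPM in these takinib cells. The part of macrophage RNA in these Ccr2 values was not tested. The larger cluster, led by Plvap, Cdh5 and Emcn, had 15.3 CPM [10.2, 22.1] in 632 vehicle and 21.7 [9.94, 41.3] in 69 takinib cells, with overlapping intervals. The free RNA of vehicle had Ccr2 at 112 CPM [87.9, 141], above the vehicle level of the endothelial-like class. None of 4 members tested passed in T-like cells, where 8.81% of genes did (7.07% upward, 1.74% downward). None of 3 passed in dendritic-like cells, where 6.06% did (3.75% upward, 2.31% downward).

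Ccl2 and Ccl7 were found in the same cells more often than their separate frequencies give. Among thinned class II cells of vehicle, 136 of 3634 had Ccl2 and 70 had Ccl7, and 28 had both where independent detection gives 2.62. In takinib Saa3-F13a1 cells 47 had both against 6.53, in takinib Gpnmb-Chil3 cells 29 against 4.32 and in takinib Cd163-Folr2 cells 15 against 5.55. Ccl7 and Ccl12 also met in 12 Saa3-F13a1 cells against 1.17. Ccl8 and Ccl12, also neighbours, met in 30 takinib Cd163-Folr2 cells against 18.8 and in 5 vehicle ones against 4.52. Ccl2 and its receptor Ccr2 met about as often as independent detection gives, in 40 vehicle macrophage-like cells against 49.5 and in 25 takinib ones against 23.2. Doublets that were not removed also put genes together, and no test was made of these counts.

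**Figure D5:**
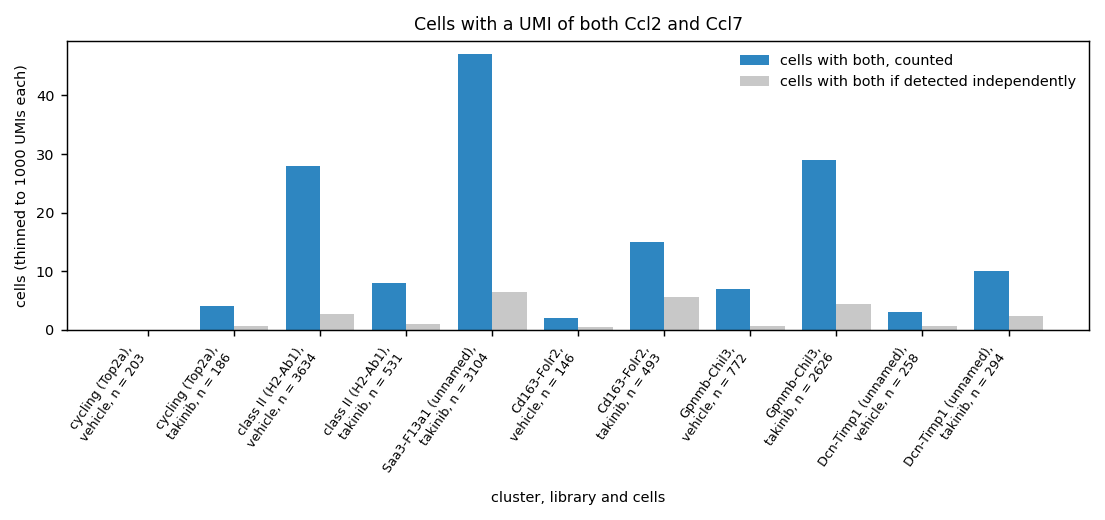
Number of cells, thinned to 1000 UMIs each, with a UMI of both Ccl2 and Ccl7 (blue) beside the number that independent detection in that cluster and library would give (grey). The counted number is above the independent one in every group that has both genes, for example 28 against 2.62 in vehicle class II cells.

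The receptors of these ligands lay in different cells, and the highest levels given here are those among named classes with at least 100 cells in the library. Ccr1, which Ccl6 and Ccl9 use, was highest in neutrophil-like cells, at 429 CPM [364, 502] in vehicle and 526 [517, 535] in takinib, and stood at 173 and 177 CPM in macrophage-like cells. Ccr3, the receptor of Ccl24, reached no more than 2.77 CPM in such a class, from 1 UMI. The takinib Vcam1-Spic cluster, which has no named class, held Ccr3 at 258 CPM [216, 306], from 132 UMIs in 60 of 112 cells. Ccr8, the receptor of Ccl8, was highest in T-like cells of either library, from 8 and 7 UMIs. The scavenging receptors Ackr1 and Ackr2 were highest in endothelial-like cells, Ackr1 at 61.8 and 79.5 CPM. The takinib Ackr1 value came from 56 UMIs, 36 of them in 1 cell, and the takinib Ackr2 value from 11 UMIs. Cx3cl1, the ligand of Cx3cr1, was highest in vehicle fibroblast-like cells at 44.2 CPM [35.0, 55.1] and in takinib epithelial-like cells at 34.6 [32.1, 37.1].

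Other genes of the pathway were read in macrophage-like cells from 5 lists, chosen with earlier results of these data known, beside 2.58% of all genes past the fold in these cells (1.54% upward). Of 14 other CC chemokines and fractalkine, 6 had enough UMIs and 2 were past the fold, Ccl3 (180 and 669 CPM) and Ccl5 (8.66 and 260 CPM), both higher in takinib. Of 13 receptors and scavengers, 4 were tested and none passed. The median log2 ratios of these lists were 0.49 and 0.05, beside 0.03 for all genes tested. Of 22 genes of monocyte trafficking, survival and receptor coupling, 21 were tested and Itgam, an integrin of myeloid cells (155 and 397 CPM), and Ly6c2, a surface protein of classical monocytes (2.90 and 24.0 CPM), were higher in takinib, with a list median of 0.17. None of 11 genes around the induction of Ccl2 passed, with a median log2 ratio of 0.18. Il1b stood at 468 and 848 CPM, Nfkbia at 362 and 562 and Tnf at 28.5 and 53.0. Of 12 genes of alternative activation, Chil3 (2761 and 10132 CPM), F13a1 (61.5 and 295 CPM) and Cd163 (7.83 and 35.3 CPM) were higher, with a list median of 0.47. The first of these leads the Gpnmb-Chil3 cluster and the last the Cd163-Folr2 cluster, the clusters that filled more of the takinib class. In the stromal Dcn-Timp1 cluster, 5 of the 11 Ccl2-induction genes were higher in takinib (Il1b, Il6, Nfkbia, Tnf and Fos), among them Il1b at 62.9 and 670.2 CPM and Il6 at 21.0 and 128 CPM, beside 4.72% of all genes upward in that cluster. In the macrophage-like clusters such genes numbered 0 of 11 tested in class II, 1 of 11 in Gpnmb-Chil3, 2 of 10 in Cd163-Folr2 and 1 of 10 in cycling cells. S100a8 and S100a9 together stood at 191 and 10518 CPM in the Dcn-Timp1 cluster and at 266 and 5509 CPM in macrophage-like cells. Ccl3 also led a neutrophil-like cluster of 3406 takinib cells. The part of neutrophil RNA in the values of the list genes was not tested in either group.

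The pattern of each member over 18 profiles (a cell class in a library, with at least 100 cells) was set beside those of 12773 genes, as Pearson's r of log2(CPM + 10). The profiles share libraries and free RNA, so the values only describe. Ccl9 was most like C3ar1 (0.98), Lyz2 (0.97) and Gm48065 (0.96), and Ccl6 most like Cd68 (0.95), Arl11 (0.94) and Clec4a2 (0.94). Ccl6 and Ccl9 stood at 0.93 with each other, the highest of any pair of members. Among the genes most like Ccr2 were Klrb1b (0.96) and Aif1 (0.90), and Cx3cr1 most like Pla2g15 (0.92), Plxna4os1 (0.91) and Adamdec1 (0.90). Ccl24 was most like Spink2 (0.91), Retnla (0.91) and Spaca9 (0.90). Ccl7 was most like Gm10134 (0.91), Slc7a2 (0.89) and Rnf150 (0.88), and Ccl2 most like Zeb2 (0.85), Agtrap (0.81) and Hgsnat (0.81). Ccl12 was most like Ms4a7 (0.84), Gsg1 (0.84) and C3ar1 (0.83), and Ccl8 most like Creg2 (0.84), Mcoln2 (0.79) and Gpnmb (0.78). Single cells weigh on some of these profiles. One cell held 113 of 167 Ccl7 UMIs in vehicle perivascular-like cells, where Gm10134 was highest. In takinib dendritic-like cells, where Gsg1 was highest, 1 cell held 36 of 44 Ccl12 UMIs. In takinib plasma-like cells, where Creg2 and Mcoln2 were highest, 1 cell held 312 of 321 Ccl8 UMIs. The likeness without these cells was not tested.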

How the data were processed

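Single cells of 1 vehicle and 1 takinib library were given as raw counts. The deposited matrices hold UMI counts per gene and barcode, made by the authors with Cell Ranger 4 (vehicle) and Cell Ranger 6.1.1 (takinib) per the file headers, whereas the submitters' processing notes list Cell Ranger 2.1.1, STAR 2.0.4b, featureCounts 1.45 and the build mm10. The versions differ between the libraries, and so did the barcodes kept: the vehicle matrix was unfiltered (470280 barcodes with a UMI) and no takinib barcode had fewer than 500 UMIs. Every number in those matrices was mapped to a sample, with 0 columns left over.

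Cells were kept from 1000 UMIs and 500 genes upward if mitochondrial UMIs did not exceed 20% (9872 vehicle, 26790 takinib). Scrublet was run per library with 6% expected doublets. Its threshold removed 314 vehicle cells (3.18%), but it marked 0.00373% of takinib cells, so the 1607 highest scores were removed there. Clustering used scanpy 1.11.5 on the joined libraries (2000 variable genes without the 9 genes studied, 30 principal components, 15 neighbours, Leiden resolution 1). Clusters were named from marker lists. They were left unnamed where the best class had fewer than 3 detected markers or where markers of another class led. The same held where a second class with at least 3 detected markers scored close to the best. This rule was set after the data were seen. UMIs were summed per class or cluster and library and divided by their total (CPM). A log2 ratio compared takinib with vehicle with 10 CPM added, in groups with at least 100 cells in each library. Intervals are exact (Poisson for sums, Clopper-Pearson for shares, conditional binomial for ratios) at 95%. They cover counting error only, not mice. A count of 0 allows up to 3 counts.

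The genes and lists were chosen with earlier results of these data known. Named besides the 9 genes were the 3 genes most like each, list genes past the fold in macrophage-like cells, and the receptors where highest, of which 1 gene is not reported here; genes named in other clusters were chosen after their values were seen. The calculation was tested on simulated data. Python 3.11.15, numpy 2.4.6, scipy 1.17.1 and biopython 1.88 were used. Gene models came from GENCODE M21 (GRCm38), and their identifiers matched those of the matrices for all 9 genes. Levels without the cell that held the most UMIs of a gene were added after seeing the data.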

Additional observations from a re-analysis of the deposited data

Results flagged for a closer look

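Ccl24 went in opposite directions in clusters of the same macrophage-like class. Its log2 ratio of takinib over vehicle was 0.65 in Gpnmb-Chil3 cells, -1.25 in cycling cells and -0.60 in Cd163-Folr2 cells. The difference between clusters was not tested, since each treatment had 1 library. Vehicle Gpnmb-Chil3 cells held 54 Ccl24 UMIs and vehicle Cd163-Folr2 cells 27. The vehicle Gpnmb-Chil3 level, 14.0 CPM [10.5, 18.3], was not above the vehicle free RNA, 26.1 CPM [15.2, 41.8]. Among cycling cells, single cells held 29 of the 101 vehicle and 24 of the 51 takinib UMIs. After thinning, 9 and 2 UMIs were left there, too few for a call.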

How the results depend on the processing

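No paired analysis was possible because each treatment had 1 library. Of 612 log2 ratios of single genes recomputed under 15 settings (12 planned and 3 chosen after seeing the data), 409 stayed within the counting interval of the reported value, and 0 of the called ones turned direction. In macrophage-like cells 5 genes were past the fold, against 3 with 50 CPM added and 3 when the 4 clusters were averaged with equal weights. Ccl8 and Cx3cr1 were past it in 15 of 15 settings (Ccl8 1.04 to 3.76). Ccl2 was past it in 14 (0.92 with 50 CPM added, up to 1.96), Ccr2 in 13 and Ccl24 in 9. Ccl7 was past it in 1, vehicle cells with Xist and no Y-linked UMI (1.43). In neutrophil-like cells the 3 became 7 with 1 CPM added, 1 with 50 CPM added and 5 with each library clustered on its own. In epithelial-like cells the 0 became 4 with 1 CPM added and 1 each with doublet calls kept, with cells thinned to 1000 UMIs, with each library clustered on its own and with vehicle cells limited to Xist and no Y-linked UMI. The causes were not tested. Fibroblast-like and monocyte-like cells, and neutrophil-like cells under the other settings, had too few cells in a library to compare. Depth limits genes near 10 CPM, which covers most of these genes outside myeloid and stromal cells.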

Other observations

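The takinib cluster led by Vcam1, Cd5l and Spic, seen in 112 cells of that library and 0 of vehicle, held Cx3cr1 at 78.1 CPM [55.8, 106] from 40 UMIs in 9 cells, 16 of them in 1 cell. Takinib class II and Cd163-Folr2 cells stood at 81.3 and 59.0 CPM. An unnamed cluster led by Retnla and Mucl1 beside Cd3d and Cd8b1 had Ccl8 at 124 CPM [101, 152] in 109 takinib cells, of which 12 had a UMI, and at 33.2 CPM [12.2, 72.3] in 32 vehicle cells, of which 3 had a UMI. Map3k7, which encodes the kinase that takinib inhibits, was detected at 29.1 CPM over all vehicle and 24.4 CPM over all takinib cells.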
